A study of Caenorhabditis elegans with 11 samples.

Results

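Nematodes build a new cuticle and shed the old one at the end of each larval stage. The 10 genes described here encode proteins that epidermal cells make for that work: 3 enzymes that crosslink or cut cuticle (mlt-7, nas-36, nas-37), a protease inhibitor (mlt-11), 3 further genes named for defective molting (mlt-8, mlt-9, mlt-10), and 3 proteins of the apical extracellular matrix (noah-1, noah-2, fbn-1). They were found by their names in the deposited tables, which held 46926 genes with counts and 18798 with TPM values (a level corrected for library size and transcript length). All 10 were present in both tables, and all 10 passed the filter on low counts, which left 16013 genes to test.

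The libraries came from whole Caenorhabditis elegans animals harvested at the L4 stage, the last larval stage, and fed the HT115 strain of E. coli. Of these libraries 3 came from atfs-1(null)_nhr-180(cmh19) animals, called the double mutant here, 3 from atfs-1(null), 2 from nhr-180(cmh19) and 3 from wildtype. ATFS-1 is a transcription factor that turns on genes of the mitochondrial unfolded protein response, and NHR-180 belongs to the nuclear hormone receptors. The double mutant and the nhr-180(cmh19) animals carry the same nhr-180 allele, and the double mutant and the atfs-1(null) animals the same atfs-1 genotype. The labels name no parent strain, outcrossing, hour within L4 or harvest day, and they call the samples biological replicates without saying what separated them, so the p-values measure the spread between these samples.

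During each molt, epidermal cells first secrete a temporary matrix, the precuticle, in which zona pellucida domain proteins such as NOAH-1 and NOAH-2 shape the surface, and then lay down collagens and crosslink them. Secreted proteases free the old cuticle, and inhibitors hold such proteases in check. The genes for these steps are transcribed in waves that recur once per larval stage, and different genes peak at different times in the wave.

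Total counts per library lay between 20860822 and 22921602. The counts of the mutated genes followed the labels: atfs-1 had 10 to 99 counts in the libraries with atfs-1(null) and 902 to 1167 in the others, and nhr-180 had 6 to 13 counts in the libraries with cmh19 and 65 to 121 in the others. A pair of libraries stood apart from their own genotype on the second principal component of all genes, atfs-1(null) replicate 1 (30.9, the others -43 and -31.3) and wildtype replicate 2 (-43, the others -5.25 and -18.5). Levels also moved with coding length, to a different extent in each library, as the plot of levels by coding length shows. Among the 161 genes with 6000 or more coding bases, leaving out the 10, the median log2 difference from the wildtype mean was -1.4 in atfs-1(null) replicate 1 and -0.92 in nhr-180(cmh19) replicate 3, and between -0.48 in double mutant replicate 2 and 0.3 in double mutant replicate 3 in the others. The coding sequences of mlt-11 (9387 bases, 3129 residues) and fbn-1 (8343 bases, 2781 residues) fall in that class, and those of the other 8 genes run between 804 and 3156 bases. Among the double mutant libraries, mlt-11 and fbn-1 were lowest in replicate 2 and highest in replicate 3. Epidermal marker genes were detected in every library. The sum of their 15 levels was lowest in atfs-1(null) replicate 1 and nhr-180(cmh19) replicate 3, at 1472 and 2247 CPM (counts scaled by library size, not by length). It lay between 2414 and 4166 CPM in the others. Both low libraries also had the lowest levels of long genes, and whether the sums follow coding length was not tested.

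**Figure D1:**
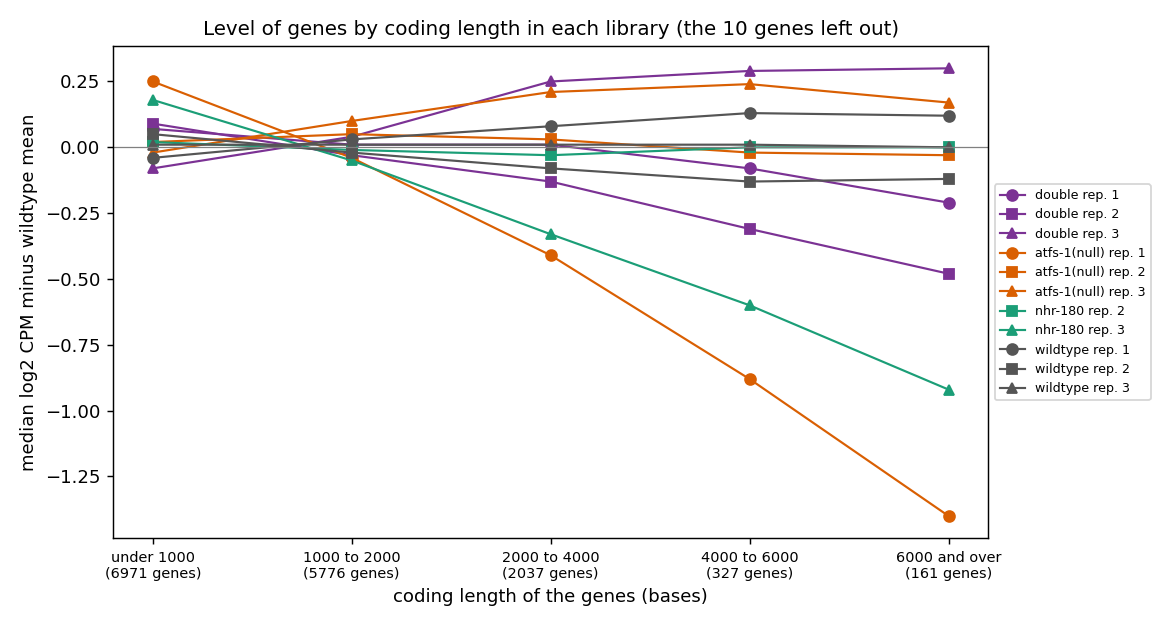
Median log2 CPM minus the wildtype mean (vertical axis) for genes in 5 classes of coding length (horizontal axis, in bases, number of genes below), 1 line per library, with the 10 genes left out. The lines of atfs-1(null) replicate 1 and nhr-180(cmh19) replicate 3 fall to -1.4 and -0.92 in the class of 6000 bases and over, and the other 9 lie between -0.48 and 0.3 there.

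By mean TPM, mlt-8 was the most abundant of the 10 in every genotype, at 268 ± 64.8 TPM in the double mutant, 258 ± 47.5 in atfs-1(null), 391 ± 4.37 in nhr-180(cmh19) and 372 ± 11.3 in wildtype (SD, n = 3, 3, 2 and 3). In single libraries, noah-2 was above it in atfs-1(null) replicate 3 and both noah genes in double mutant replicate 3. In wildtype, noah-1 (270.5 ± 98.1 TPM) and noah-2 (269 ± 68.6 TPM) followed, then mlt-10 (214 ± 26.8 TPM), and these 3 overlapped between libraries. Next came mlt-11 (95.8 ± 16.4 TPM) and mlt-9 (95.3 ± 9.74 TPM), which did not differ beyond their spread, nas-37 (78.4 ± 14.9 TPM), and mlt-7 (56.3 ± 6.19 TPM) and fbn-1 (51.8 ± 18.1 TPM), which also overlapped. The lowest was nas-36, at 18.6 ± 4.13 TPM. In nhr-180(cmh19) the order changed: mlt-10 stood second at 281 ± 38.1 TPM, above noah-2 (134 ± 9.79 TPM) and noah-1 (107 ± 13.03 TPM), and fbn-1 was last at 9.91 ± 5.14 TPM, below nas-36 at 31.7 ± 6.31 TPM (SD, n = 2).

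**Figure D2:**
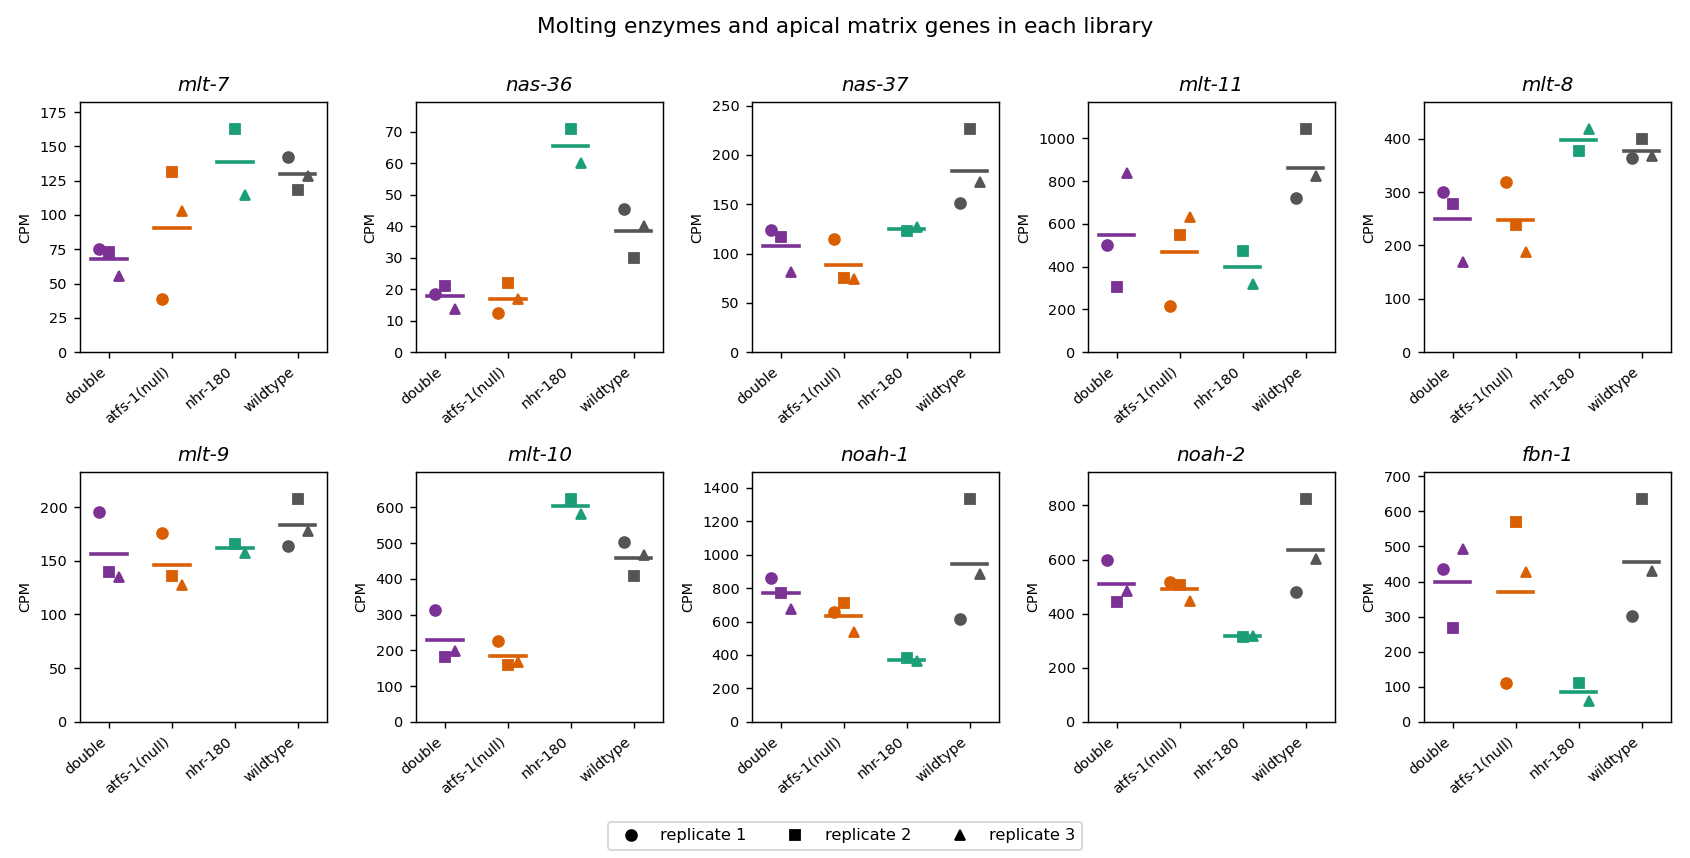
CPM of the 10 genes (vertical axes, from 0) in each genotype, with wildtype rightmost, 1 point per library with its shape giving the replicate number, and a bar at the mean of each genotype. The points of mlt-10 and nas-36 in both genotypes with atfs-1(null) lie below every point of nhr-180(cmh19) and wildtype, and those of noah-1, noah-2 and fbn-1 in nhr-180(cmh19) lie below every wildtype and double mutant point.

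Loss of atfs-1 went with lower levels of 3 of the 10 genes: mlt-10, nas-36 and nas-37 fell, to 0.402, 0.443 and 0.482 times the wildtype level. The other 7 were also lower on average but did not pass the test. Among all genes tested, 14.3% were called at an adjusted p under 0.05, 6.77% lower and 7.54% higher, and the median log2 fold change of the 10 was -0.59, beside 0.06 over all genes tested. In these whole-animal libraries, fewer epidermal cells, less of an RNA per cell and another hour within L4 cannot be told apart.

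Both nas genes encode secreted zinc metalloproteases of the astacin family, and nas-37 is known for digesting the old cuticle so that it can be shed. For nas-36 the 3 atfs-1(null) libraries had 12.3, 21.9 and 16.8 CPM and the 3 wildtype libraries 45.4, 29.9 and 39.96 CPM. The groups did not overlap. Its level fell by 1.18 ± 0.24 on the log2 scale (SE, edgeR's quasi-likelihood test, adjusted p = 0.00828). For nas-37 the values were 115, 75.5 and 74.4 CPM in atfs-1(null) and 151, 226.5 and 172 CPM in wildtype. These also did not overlap, and the fall was 1.05 ± 0.23 (log2, adjusted p = 0.0113). Exons of nas-37 overlap C17G1.5 on the opposite strand, which had 2801 counts over all libraries beside 30787 for nas-37.

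Neither the peroxidase gene nor the inhibitor gene passed the test. The heme peroxidase mlt-7, which acts in crosslinking with the dual oxidase BLI-3, had 38.8, 131 and 103 CPM in atfs-1(null) and 142.1, 118.5 and 128.5 CPM in wildtype (log2 fold change -0.51 ± 0.35, adjusted p = 0.343). Replicates 1 and 3 of atfs-1(null) were below every wildtype library, and replicate 2 lay among them. The Kunitz-type protease inhibitor mlt-11 had 217, 547 and 634 CPM in atfs-1(null) and 718.5, 1044 and 825.5 CPM in wildtype (-0.89 ± 0.41, adjusted p = 0.177). Its lowest library was the one with low levels of long genes, and when the trend of levels with coding length was removed from each library, a setting chosen after the trend was seen, the log2 fold change was -0.60 ± 0.21 (adjusted p = 0.0707).

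The founder of a nematode gene family, mlt-10, is needed for normal molting. It had 226.5, 158 and 168 CPM in atfs-1(null) and 504, 407 and 465 CPM in wildtype, with no overlap. This was the largest fall among the 10 in this comparison, 1.32 ± 0.22 (log2, adjusted p = 0.00269). Its exons overlap those of lips-7 on the same strand, which had 5076 counts over all libraries beside 84445 for mlt-10. The gene lies on chromosome II from 546705 to 552032 (WBcel235), and mlt-8 follows it from 569210 to 572110 with 3 protein-coding genes wholly between. The level of mlt-8 was 319.5, 238 and 188 CPM in atfs-1(null) and 364, 399.5 and 368 CPM in wildtype. All 3 mutant libraries were below all 3 wildtype libraries, but the difference did not pass the test (-0.60 ± 0.23, adjusted p = 0.106). For mlt-9 the ranges overlapped, 128 to 176 CPM in atfs-1(null) and 164 to 208 CPM in wildtype (-0.32 ± 0.18, adjusted p = 0.261).

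None of the matrix genes was called. The values of noah-1 were 656, 709.8 and 535 CPM in atfs-1(null) and 617, 1336 and 886 CPM in wildtype (-0.58 ± 0.24, adjusted p = 0.134), and those of noah-2 were 515, 506 and 448 CPM in atfs-1(null) and 479, 825 and 603 CPM in wildtype (-0.38 ± 0.19, adjusted p = 0.221). Wildtype replicate 1 lay among the mutant libraries for both. The fibrillin-related gene fbn-1, whose product helps the epidermis resist mechanical strain, had 110.5, 571 and 426 CPM in atfs-1(null) and 301, 636 and 429.9 CPM in wildtype (-0.30 ± 0.51, adjusted p = 0.719). Its atfs-1(null) libraries spanned 5.16-fold, and the low one was again replicate 1. Without that library the log2 fold change was 0.09 (adjusted p = 0.893).

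The calls of mlt-10 and nas-36 in this comparison held in all 21 alternative analyses, with each library left out in turn among them. That of nas-37 held in 20 of the 21. It missed the threshold once the coding-length trend was removed (-0.96 ± 0.31, adjusted p = 0.0526), where mlt-8 passed it instead (-0.68 ± 0.19, adjusted p = 0.0284). Calls were also gained by mlt-8 without atfs-1(null) replicate 1 (adjusted p = 0.03) and by noah-1 without wildtype replicate 1 (adjusted p = 0.0367).

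**Figure D3:**
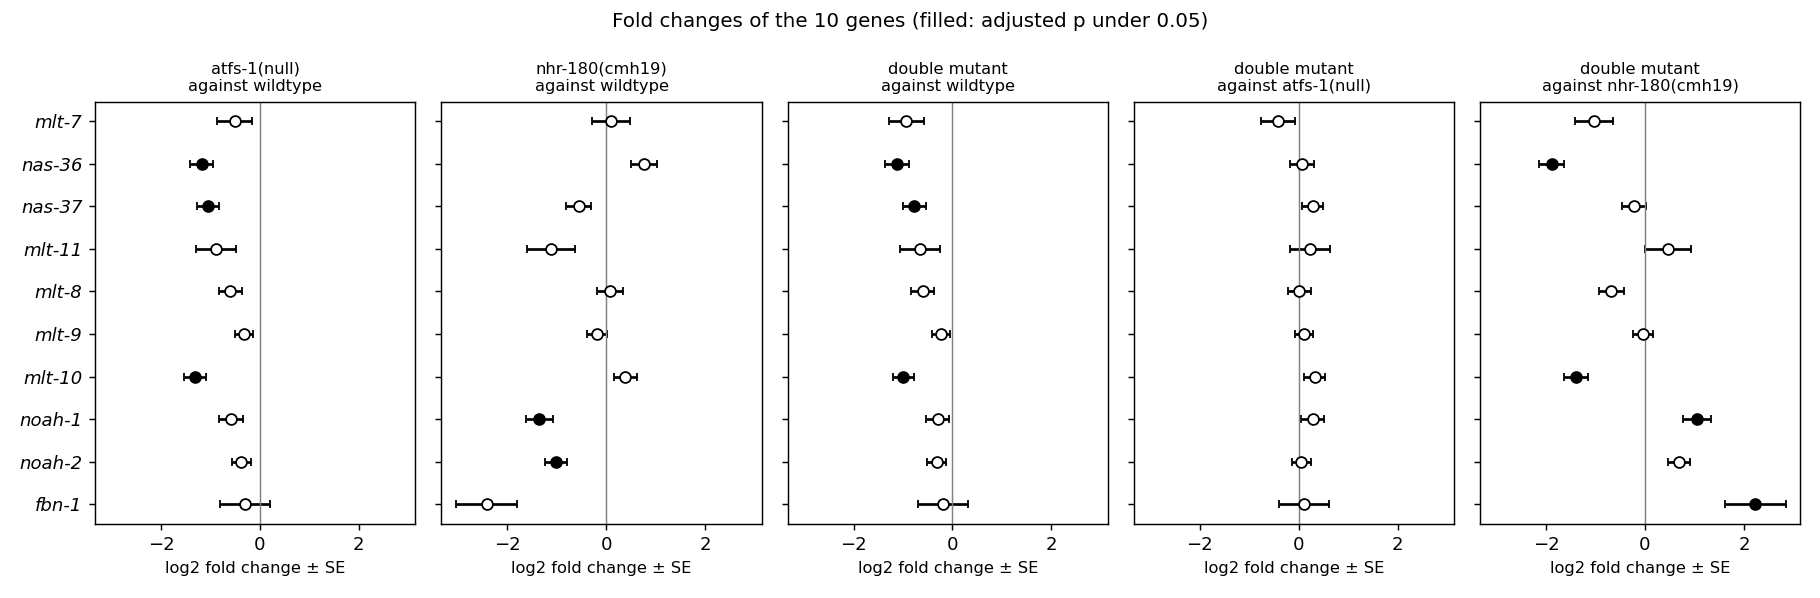
Log2 fold change with its SE (horizontal axes) of the 10 genes (rows) in 5 comparisons, from edgeR's quasi-likelihood model of all 11 libraries. Filled points had an adjusted p under 0.05, which are 3 genes in atfs-1(null) against wildtype, 2 in nhr-180(cmh19) against wildtype, 3 in the double mutant against wildtype, 0 in the double mutant set against atfs-1(null) and 4 in the double mutant against nhr-180(cmh19).

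With the nhr-180 mutation alone, 2 of the 10 fell and 0 rose. These were the zona pellucida genes noah-1 and noah-2, at 0.393 and 0.497 times the wildtype level, and fbn-1 was at 0.187 times that level without passing the test. In both nhr-180(cmh19) libraries mlt-10 and nas-36 were above every wildtype library, and neither passed the test. Over all genes tested, 2.24% were called in this comparison, 1.57% higher and 0.662% lower, and the medians were -0.37 for the 10 and -0.02 for all genes. The wildtype libraries are shared with the comparison above, so the pair of results is not independent.

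Both NOAH proteins are related to NompA of Drosophila, a protein that links sense organs to the cuticle, and act in the precuticle. The level of noah-1 was 382 and 362 CPM in nhr-180(cmh19) and 617, 1336 and 886 CPM in wildtype. Neither mutant library reached the lowest wildtype one, and the wildtype libraries spanned 2.16-fold among themselves. It fell by 1.35 ± 0.28 (log2, edgeR's quasi-likelihood test, adjusted p = 0.0357). For noah-2 the values were 313 and 318 CPM in nhr-180(cmh19) and 479, 825 and 603 CPM in wildtype, again without overlap, and the fall was 1.01 ± 0.22 (adjusted p = 0.0443).

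For fbn-1 the nhr-180(cmh19) libraries had 112 and 58.5 CPM, and the wildtype libraries 301, 636 and 429.9 CPM. The mutant libraries were the lowest of all 11 apart from atfs-1(null) replicate 1, which lay between them at 110.5 CPM. The log2 fold change, -2.42 ± 0.62, was the largest of the 10 genes in any pair of genotypes, and it missed the threshold (adjusted p = 0.0781). It passed with DESeq2's Wald test (0.00078), with no filter on low counts (0.0179), with only the compared genotypes in the model (0.0309), and with atfs-1(null) replicate 1 and wildtype replicate 2 both left out (0.0147). It missed the threshold in edgeR without wildtype replicate 2 (0.22) or 3 (0.171) or double mutant replicate 1 (0.123). Limma on log2(TPM + 1) also left it uncalled (0.107). Replicate 3 of nhr-180(cmh19) had low levels of long genes and replicate 2 did not (medians of -0.92 and 0 relative to wildtype). In these replicates fbn-1 was at -2.89 and -1.96 relative to the wildtype mean. What caused its fall was not tested. With the coding-length trend removed, the fall of fbn-1 was 2.1 ± 0.38 and passed the test (adjusted p = 0.0164). Exons of fbn-1 overlap upp-1 on the opposite strand, which had 14194 counts over all libraries beside 85539 for fbn-1.

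The other long gene, mlt-11, had 471 and 321 CPM in nhr-180(cmh19) and 718.5, 1044 and 825.5 CPM in wildtype (-1.12 ± 0.48, adjusted p = 0.236). Its libraries did not overlap, and the lower one was again replicate 3. On the enzyme side, nas-36 stood the other way, with 70.9 and 60.1 CPM in nhr-180(cmh19) and 45.4, 29.9 and 39.96 CPM in wildtype (0.77 ± 0.26, adjusted p = 0.155). Its family relative nas-37 had 122.5 and 127 CPM in nhr-180(cmh19) and 151, 226.5 and 172 CPM in wildtype (-0.56 ± 0.25, adjusted p = 0.27). Both mlt-10 libraries, at 624 and 580.1 CPM, were above the wildtype range of 407 to 504 CPM (0.39 ± 0.24, adjusted p = 0.398). The ranges of mlt-7, mlt-8 and mlt-9 overlapped, with log2 fold changes of 0.10, 0.08 and -0.18.

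The ratio of mlt-10 to noah-1 within a library does not depend on library size. Their coding lengths differ (2070 and 3156 bases), so the trend of levels with coding length can still enter it. The TPM of mlt-10 divided by that of noah-1 was 0.586, 0.382 and 0.475 in the double mutant, 0.56, 0.361 and 0.51 in atfs-1(null), 2.65 and 2.6 in nhr-180(cmh19), and 1.32, 0.494 and 0.852 in wildtype. Both nhr-180(cmh19) values were above all others, and those of the double mutant and atfs-1(null) lay within or below the wildtype range. The ratio restates levels given above, of a pair of genes on opposite sides of wildtype in nhr-180(cmh19), and is not a separate result. The wildtype libraries also differed among themselves, with mlt-7, mlt-10 and nas-36 lowest and the other 7 genes highest in replicate 2, the mirror image in replicate 1, and replicate 3 between them for all 10.

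The noah calls rested on few libraries. That of noah-1 held in 13 of 21 alternatives. It missed the threshold without wildtype replicate 2 (adjusted p = 0.0764) or 3 (0.103), without nhr-180(cmh19) replicate 2 (0.25) or 3 (0.276), without double mutant replicate 1 (0.0618) or 2 (0.0653), with only the compared genotypes in the model (0.0693, log2 fold change -1.32) and with the coding-length trend removed (0.12, log2 fold change -1.16). That of noah-2 held in 8 of 21, and its adjusted p over single libraries left out ran up to 0.284. It was lost without any of the 3 double mutant libraries (0.0634, 0.0692 and 0.0615), atfs-1(null) replicate 2 (0.064) or 3 (0.0579), wildtype replicate 2 (0.123) or 3 (0.124), or nhr-180(cmh19) replicate 2 (0.284) or 3 (0.283). It was also lost with only the compared genotypes in the model (0.0727, log2 fold change -0.98), with the coding-length trend removed (0.104, log2 fold change -0.89), with the 2 libraries that stood apart left out (0.0608, log2 fold change -0.75) and with the replicate block (0.0522). Leaving out 1 nhr-180(cmh19) library leaves a lone sample that is assumed to vary like the other genotypes. Without atfs-1(null) replicate 1, a library outside the comparison whose spread enters the shared estimate, 4 genes were called: noah-1, noah-2, fbn-1 (adjusted p = 0.00841) and nas-36 (0.0497, higher).

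**Figure D4:**
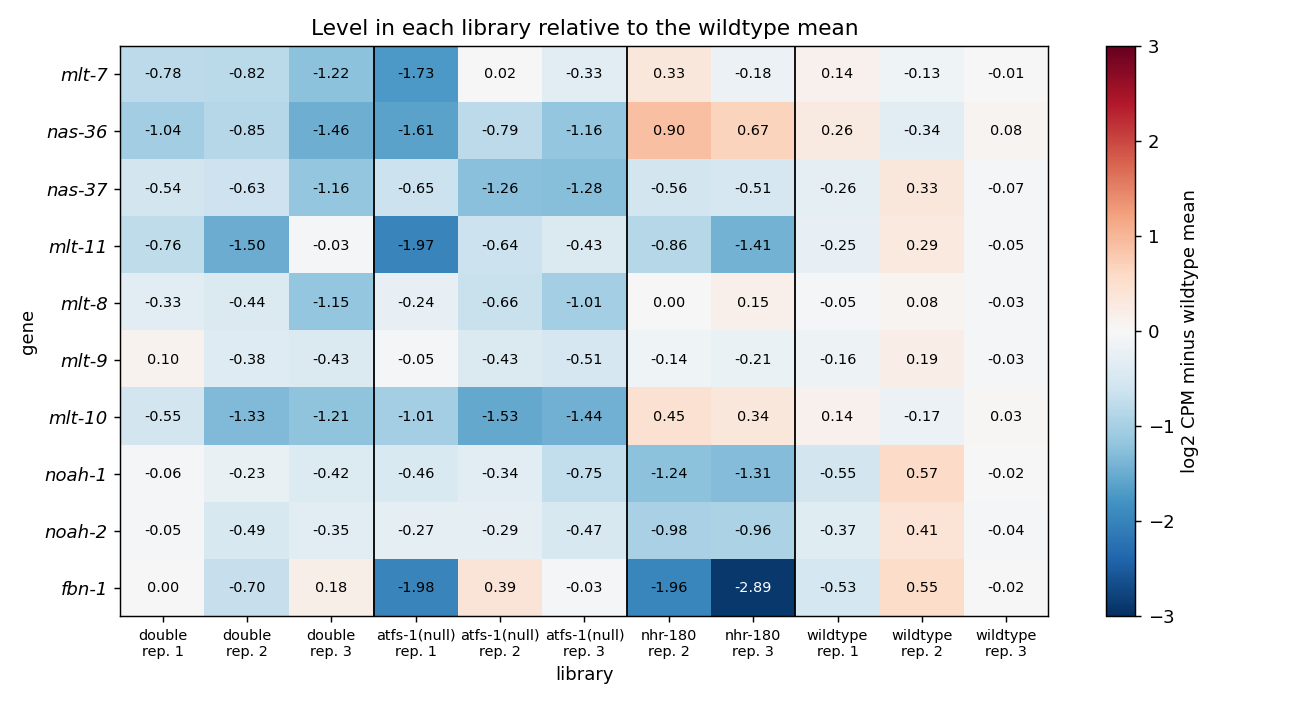
Log2 CPM minus the wildtype mean of each of the 10 genes (rows) in each of the 11 libraries (columns, by genotype with wildtype rightmost), with blue below and red above the wildtype mean. The lowest values are those of fbn-1 in nhr-180(cmh19), -1.96 and -2.89, and of fbn-1 and mlt-11 in atfs-1(null) replicate 1, -1.98 and -1.97.

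In the double mutant, which lacks atfs-1 and carries the nhr-180 allele, mlt-10, nas-36 and nas-37 fell, to 0.502, 0.461 and 0.586 times the wildtype level, and 0 rose. The matrix genes noah-1, noah-2 and fbn-1 were at 0.813, 0.8 and 0.875 times the wildtype level and were not called. Over all genes tested, 16.3% were called, 10.1% higher and 6.27% lower, and the median log2 fold change was -0.63 for the 10. The comparison shares its wildtype libraries with both above.

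The level of mlt-10 was 312, 181 and 198 CPM in the double mutant and 504, 407 and 465 CPM in wildtype, and it fell by 0.99 ± 0.22 (log2, edgeR's quasi-likelihood test, adjusted p = 0.0118). For nas-36 the values were 18.4, 21.02 and 13.7 CPM in the double mutant and 45.4, 29.9 and 39.96 CPM in wildtype (-1.12 ± 0.24, adjusted p = 0.0111). For nas-37 they were 124, 117 and 81.0 CPM in the double mutant and 151, 226.5 and 172 CPM in wildtype (-0.77 ± 0.23, adjusted p = 0.0398). In all 3 genes every double mutant library was below every wildtype library. The same was true of mlt-7, with 75.2, 73.3 and 55.3 CPM in the double mutant and 142.1, 118.5 and 128.5 CPM in wildtype, which was not called (-0.93 ± 0.35, adjusted p = 0.0911), and of mlt-8 (-0.60 ± 0.23, adjusted p = 0.101).

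The mlt-10 and nas-36 calls held in all 21 alternatives. That of nas-37 held in 13 of 21 and was lost without double mutant replicate 1 (adjusted p = 0.0588), 2 (0.0791) or 3 (0.145), wildtype replicate 2 (0.146) or 3 (0.0922), or nhr-180(cmh19) replicate 2 (0.0596) or 3 (0.0597), and with the coding-length trend removed (0.086, log2 fold change -0.79). Without atfs-1(null) replicate 1 the count became 5, with mlt-7 (adjusted p = 0.00287) and mlt-8 (0.0437) added. It was also 5 with the coding-length trend removed, where mlt-7 (0.0411), mlt-8 (0.0354) and mlt-11 (0.0466) stood beside mlt-10 and nas-36.

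Between the double mutant and atfs-1(null), 0 of the 10 were called by edgeR's quasi-likelihood test, 0 had an unadjusted p under 0.05, and DESeq2's Wald test called 0. The background was low, with 0.443% of all genes called, 0.312% higher and 0.131% lower. Log2 fold changes ran between -0.42 ± 0.35 for mlt-7 and 0.32 ± 0.22 for mlt-10, and the ranges of all 10 genes overlapped between the genotypes. The level of nas-36 was 18.4, 21.02 and 13.7 CPM in the double mutant and 12.3, 21.9 and 16.8 CPM in atfs-1(null). Replicate 1 of atfs-1(null) bears on this comparison: without it mlt-7 was lower in the double mutant (-0.79, adjusted p = 0.0381). The double mutant had 75.2, 73.3 and 55.3 CPM of mlt-7, and the other atfs-1(null) libraries 131 and 103 CPM.

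Against nhr-180(cmh19), the double mutant differed in both directions. The genes mlt-10 and nas-36 fell to 0.382 and 0.27 times the nhr-180(cmh19) level, and noah-1 and fbn-1 rose 2.07-fold and 4.68-fold. Of all genes tested, 18.5% were called, 10.3% higher and 8.21% lower. The 4 calls among the 10 are to be read against that, and the median of the 10 was -0.13. The same libraries of each genotype enter the comparisons with wildtype.

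The nas-36 values were 18.4, 21.02 and 13.7 CPM in the double mutant and 70.9 and 60.1 CPM in nhr-180(cmh19), the widest separation of any of the 10 in this comparison relative to its error (-1.89 ± 0.26, edgeR's quasi-likelihood test, adjusted p = 0.00184). Those of mlt-10 were 312, 181 and 198 CPM in the double mutant and 624 and 580.1 CPM in nhr-180(cmh19) (-1.39 ± 0.24, adjusted p = 0.00452). Those of noah-1 were 863, 769 and 675 CPM in the double mutant and 382 and 362 CPM in nhr-180(cmh19) (1.05 ± 0.28, adjusted p = 0.0258). Those of fbn-1 were 435.5, 267 and 494 CPM in the double mutant and 112 and 58.5 CPM in nhr-180(cmh19) (2.23 ± 0.62, adjusted p = 0.0305). None of these 4 overlapped between the genotypes, and how many of all genes tested did not overlap was not counted.

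For noah-2 the double mutant had 599, 441 and 485 CPM and nhr-180(cmh19) 313 and 318 CPM, also without overlap, with an adjusted p just above the threshold (0.69 ± 0.22, adjusted p = 0.0527). The libraries of mlt-7 (-1.03 ± 0.38, adjusted p = 0.0828) and mlt-8 (-0.68 ± 0.25, adjusted p = 0.0877) were all below those of nhr-180(cmh19), while mlt-9, mlt-11 and nas-37 overlapped.

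The mlt-10 and nas-36 calls held in all 21 alternatives. With the coding-length trend removed, noah-1 was lost (0.82 ± 0.37, adjusted p = 0.133) and fbn-1 kept (1.93 ± 0.38, adjusted p = 0.00632). The noah-1 call was also lost without double mutant replicate 1 (adjusted p = 0.0714) or 2 (0.065) or nhr-180(cmh19) replicate 2 (0.118) or 3 (0.164). The fbn-1 call was lost without double mutant replicate 1 (0.0663) or 3 (0.0706) or nhr-180(cmh19) replicate 2 (0.0878) or 3 (0.226). The count of 4 became 2, mlt-10 and nas-36, without double mutant replicate 1, nhr-180(cmh19) replicate 2 or nhr-180(cmh19) replicate 3.

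Whether the effect of the nhr-180 mutation differs with atfs-1 status was tested as an interaction, (double mutant minus atfs-1(null)) minus (nhr-180(cmh19) minus wildtype). With edgeR's quasi-likelihood test 0 of the 10 were called, 4 had an unadjusted p under 0.05 (nas-37, noah-1, noah-2 and fbn-1), and 1.14% of all genes were called, 0.862% with a negative coefficient. DESeq2's Wald test called 3, noah-1 (adjusted p = 0.0038), noah-2 (0.038) and fbn-1 (0.026). In edgeR the coefficient of noah-1 was 1.63 ± 0.37 (adjusted p = 0.0726), that of noah-2 1.06 ± 0.29 (adjusted p = 0.135) and that of fbn-1 2.53 ± 0.79 (adjusted p = 0.179). For these 3 the log2 fold change with the nhr-180 mutation was 0.28, 0.05 and 0.11 in animals without atfs-1 and -1.35, -1.01 and -2.42 in animals with it. The noah-1 coefficient was called without wildtype replicate 1 (adjusted p = 0.0221), and with the coding-length trend removed it was 1.27 ± 0.50 (adjusted p = 0.251).

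Other genes of the molting pathway were counted from lists of names, with edgeR's calls over all genes. Of 13 mltn genes, relatives of mlt-10, 9 had enough counts to test. In atfs-1(null) against wildtype, where 14.3% of all genes were called, 5 of the 9 fell and 0 rose, among them the little expressed mltn-5 (0.440 CPM in atfs-1(null) and 3.49 CPM in wildtype, -2.97 ± 0.30, adjusted p = 0.000119), mltn-9 (-1.30 ± 0.22, adjusted p = 0.00281) and mltn-1 (-1.29 ± 0.22, adjusted p = 0.00357), and these 3 calls held in all alternatives. In nhr-180(cmh19) against wildtype, where 2.24% of all genes were called, 2 rose, mltn-8 and mltn-1, and mltn-1 averaged 129 CPM in nhr-180(cmh19) and 61.8 CPM in wildtype (1.07 ± 0.24, adjusted p = 0.0489). That count was 4 without atfs-1(null) replicate 1, 1 without double mutant replicate 3 or wildtype replicate 2, and 0 without any of the other 8 libraries. In the double mutant against wildtype 3 of the 9 fell and 1 rose, beside 16.3% of all genes called. Against nhr-180(cmh19), 4 of the 9 fell and 0 rose in the double mutant, with mltn-1 at -1.86 ± 0.24 (adjusted p = 0.00141). Of all genes, 18.5% were called in that comparison and 8.21% called lower. The count there was 2 without double mutant replicate 3 or wildtype replicate 3, and 1 without either nhr-180(cmh19) library.

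Among 31 measured astacin genes other than nas-36 and nas-37, 6 fell and 0 rose in atfs-1(null) against wildtype, beside 14.3% of all genes called, and the count was 3 without wildtype replicate 3. The smallest adjusted p was that of nas-27, which averaged 5.61 CPM in atfs-1(null) and 27.4 CPM in wildtype (-2.29 ± 0.27, adjusted p = 0.000351). None was called in nhr-180(cmh19) against wildtype by edgeR or DESeq2, 10 had an unadjusted p under 0.05, and 2 were called without atfs-1(null) replicate 1. Against nhr-180(cmh19), 12 fell and 1 rose in the double mutant, beside 18.5% of all genes called, among them nas-27 (-2.58 ± 0.29, adjusted p = 0.000576), nas-12 (-2.02 ± 0.30, adjusted p = 0.00238) and nas-23 (-1.86 ± 0.27, adjusted p = 0.00238). The 13 calls became 8 without double mutant replicate 2 and 3 without either nhr-180(cmh19) library, while those of nas-27, nas-12 and nas-23 held in all alternatives.

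The precuticle and zona pellucida list had 45 measured genes. In nhr-180(cmh19) against wildtype, where 0.662% of all genes were called lower, 4 fell and 0 rose: let-653, a zona pellucida mucin of narrow tubes and vulva (34.7 CPM in nhr-180(cmh19) and 115 CPM in wildtype, -1.73 ± 0.33, adjusted p = 0.0246), sym-1, a secreted leucine-rich repeat protein (262 CPM in nhr-180(cmh19) and 661 CPM in wildtype, -1.34 ± 0.27, adjusted p = 0.0329), let-4, a leucine-rich repeat transmembrane protein (-1.33 ± 0.29, adjusted p = 0.042), and cutl-10. This count was 11 without atfs-1(null) replicate 1 or wildtype replicate 1. It was 2 without atfs-1(null) replicate 2 or 3 or double mutant replicate 3, 1 without double mutant replicate 1 or 2 or wildtype replicate 2, and 0 without wildtype replicate 3 or either nhr-180(cmh19) library. In atfs-1(null) against wildtype 3 of the 45 fell, a share near the 6.77% of all genes called lower. These were cutl-6 (-1.24 ± 0.22, adjusted p = 0.00365), cutl-28 (-0.98 ± 0.18, adjusted p = 0.00496) and cut-4, with 7 called without atfs-1(null) replicate 1 and 5 without replicate 2.

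Of the 45, 5 rose and 6 fell in the double mutant against nhr-180(cmh19), beside 10.3% of all genes called higher and 8.21% called lower. The 5 that rose were let-653 (1.81 ± 0.33, adjusted p = 0.00597), let-4 (1.58 ± 0.30, adjusted p = 0.00661), the transmembrane protein gene egg-6 (1.32 ± 0.18, adjusted p = 0.00184), sym-1 (0.99 ± 0.27, adjusted p = 0.028) and the lipocalin gene lpr-3 (0.92 ± 0.27, adjusted p = 0.0356). Of these, sym-1 and lpr-3 were named after their values were seen. The 6 that fell were ram-5, cut-4 and 4 cutl genes, which are cuticlin-like. Without either nhr-180(cmh19) library 1 of the 11 was left. The egg-6 gene was called in the interaction (1.30 ± 0.24, adjusted p = 0.0279), and it missed the threshold in 11 of 20 alternatives, among them all the libraries left out singly except atfs-1(null) replicates 1 and 3.

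Of 12 transcription factors of the molting cycle, 0 were called in atfs-1(null) against wildtype by edgeR or DESeq2, beside 14.3% of all genes by edgeR. Among the 12, 3 had an unadjusted p under 0.05, and 2 were called without atfs-1(null) replicate 1. In nhr-180(cmh19) against wildtype 1 of the 12 was called, beside 2.24% of all genes. This was the DNA-binding factor gene peb-1, lower at 11.6 CPM in nhr-180(cmh19) and 29.1 CPM in wildtype (-1.32 ± 0.28, adjusted p = 0.0362). Against nhr-180(cmh19), the double mutant had higher peb-1 (1.23 ± 0.28, adjusted p = 0.0139) and nhr-23, the ROR nuclear receptor that drives molting genes (1.11 ± 0.33, adjusted p = 0.0383), and lower bed-3 (-0.81 ± 0.24, adjusted p = 0.0366). These 3 of 12 are to be read against the 18.5% of all genes called. The count of 3 was 1 without double mutant replicate 3 or wildtype replicate 3, and lower still without either nhr-180(cmh19) library. The peb-1 call against wildtype was lost without atfs-1(null) replicate 3, double mutant replicate 1, wildtype replicate 2 or 3, or either nhr-180(cmh19) library, and 2 factors were called without atfs-1(null) replicate 1. Among 15 genes of cuticle crosslinking, processing and inhibition, 2 fell and 0 rose in the double mutant against nhr-180(cmh19). This stands beside 18.5% of all genes called and 8.21% called lower. The 2 were dpy-18 and bli-5, a Kunitz-type inhibitor gene that fell in all alternatives (-1.64 ± 0.28, adjusted p = 0.00417).

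Markers of the adult cuticle, yolk and oocytes also moved between genotypes, and their part in them was not tested. The 4 adult cuticle collagens col-7, col-19, col-62 and col-119 summed to 363 to 909 CPM in the double mutant, 15.8 to 102 CPM in atfs-1(null), 1859 to 2141 CPM in nhr-180(cmh19) and 619.5 to 1114 CPM in wildtype. All 4 fell in atfs-1(null) against wildtype by edgeR's test, beside 6.77% of all genes called lower. The lists were chosen with earlier results of these data known, so counts from them are a description. The 6 yolk protein genes summed to 5403 to 9771 CPM in the double mutant, 300.7 to 772.6 CPM in atfs-1(null), 6381 to 10960 CPM in nhr-180(cmh19) and 3363 to 7679 CPM in wildtype. All 6 fell in atfs-1(null) against wildtype (median log2 fold change -4.09), beside 6.77% of all genes called lower. All 6 rose in the double mutant set against atfs-1(null), beside 0.312% of all genes called higher. Of 15 body wall muscle markers, 2 fell in atfs-1(null) and 3 in the double mutant against wildtype, beside 6.77% and 6.27% of all genes called lower. All 15 log2 fold changes were negative in both. Leaving out atfs-1(null) replicate 2 made the muscle count of 2 into 1, and leaving out wildtype replicate 1 or 3 made it 0. That of 3 was 1 without double mutant replicate 3 and 0 without double mutant replicate 1 or 2 or any wildtype library. The 21 oocyte and female germline markers summed to 3297 to 4790 CPM in the double mutant, 1226 to 2987 CPM in atfs-1(null), 1112 to 1347 CPM in nhr-180(cmh19) and 729.9 to 1491 CPM in wildtype. Of these 21, 20 rose in the double mutant against wildtype, beside 10.1% of all genes called higher. Against nhr-180(cmh19) 19 rose, beside 10.3% of all genes called higher. The count of 19 was much lower without either nhr-180(cmh19) library. Of 15 epidermal markers 0 were called in either single mutant against wildtype by edgeR, beside 14.3% of all genes in atfs-1(null) and 2.24% in nhr-180(cmh19). In each, 2 had an unadjusted p under 0.05 and DESeq2's Wald test called 1.

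The genes most like each of the 10 were found by Pearson's r of log2 CPM over the 11 libraries, among 6466 named genes with a mean of at least 5 CPM. All 11 libraries share the genotype differences and the libraries that stood apart, so the r is a description. The noah genes were like each other (r = 0.963), and both were like sym-1 (0.96 with noah-1 and 0.985 with noah-2). The genes like mlt-10 were slcf-2 and paqr-3 (0.979 each) and wrt-4 (0.966). The nearest to nas-36 was tre-5 (0.991), to nas-37 wrt-2 (0.982), to mlt-8 trap-2 (0.97), and to mlt-7 fbl-1 and doxa-1 (0.988 each). The nearest to fbn-1 was myrf-1 (0.986) and to mlt-11 gcs-1 (0.954). The least closely matched was mlt-9, whose nearest gene was mam-4 (0.894).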

How the data were processed

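Read counts per gene and TPM values were used as deposited by the authors. Per the submitters' processing notes, featureCounts 1.5.2 was used, and the libraries were stranded and paired-end, per the labels' protocols. Which aligner, gene models and strand option were used is not given in the sources, so reads of overlapping genes may be shared. The coordinates of all 10 genes matched WBcel235, from which coding lengths were taken.

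Counts were tested with edgeR 4.0.16 in R 4.3.3: its low-count filter, TMM scaling, 1 mean per genotype over all 11 libraries, quasi-likelihood tests, and Benjamini-Hochberg adjustment over 16013 genes, called at 0.05. CPM values are TMM-scaled, and log2 CPM used a prior count of 2. Whether the libraries of a pair of genotypes overlapped is described gene by gene. The share of all genes that overlapped was not counted, so these descriptions have no background. Alternatives used DESeq2 1.42.0, limma 3.58.1 on log2(TPM + 1), where fold changes of low genes are understated, and other settings given at the end. The tests were tested on simulated data with known changes.

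The 10 genes and the other lists were chosen with earlier results of these data known. All 10 were described. From other lists, values were given for up to 3 called genes with the smallest adjusted p, with any exception marked. Some further called genes were named without values. No sequences are shown.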

Additional observations from a re-analysis of the deposited data

How the results depend on the processing

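Across 60 results for the 10 genes (each gene in 5 comparisons and the interaction) and 1250 alternatives, 1122 stayed on the same side of the threshold with the same sign, 39 lost a call, 45 gained one and 44 changed sign, all of these uncalled. The cause was not tested. The calls of mlt-10 and nas-36 held throughout.

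Labels give a replicate number but no shared day or batch. Same-numbered libraries deviated together (r over 0.1) in 5 of 15 pairs, with r from -0.41 to 0.613. Libraries of other numbers did so in 12 of 30 pairs, with r from -0.54 to 0.41. In nhr-180(cmh19), with 2 libraries, deviations from the genotype mean mirror each other, so r values with that genotype cannot show a shared day or batch. In pairs without it, same-numbered r ran from -0.275 to 0.613, all but the lowest positive. Those of other numbers ran from -0.54 to 0.41. Whether a day or batch was shared was not tested. With the replicate block, 695 genes were called in nhr-180(cmh19) against wildtype, beside 358 without it, fbn-1 gained its call (adjusted p = 0.0409), noah-2 lost it (0.0522), and mlt-7 changed sign to -0.04.

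Other sign changes (log2) came with wildtype replicate 2 and atfs-1(null) replicate 1 both left out: fbn-1 in atfs-1(null) against wildtype (0.45), mlt-11 (-0.12), nas-36 (-0.13) and fbn-1 (-0.33) in the double mutant set against atfs-1(null), noah-1 (0.03) and fbn-1 (0.12) in the double mutant against wildtype, and mlt-8 (0.07) and mlt-10 (0.15) in the interaction. With the coding-length trend removed, mlt-11 (-0.06), noah-2 (-0.04) and fbn-1 (0) changed in the double mutant set against atfs-1(null), and mlt-8 (0.05) in the interaction. With each of the 3 TPM settings, mlt-9 was at 0.08 in the double mutant against nhr-180(cmh19).

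With single libraries left out, ranges that crossed zero were -0.76 to 0.09 for fbn-1 in atfs-1(null) against wildtype, -0.18 to 0.33 for mlt-7 and 0 to 0.15 for mlt-8 in nhr-180(cmh19) against wildtype, and -0.23 to 0.05 for mlt-9 in the double mutant against nhr-180(cmh19). They were -0.16 to 0.23 for mlt-8, -0.09 to 0.25 for mlt-9, -0.19 to 0.52 for mlt-11, -0.13 to 0.28 for nas-36, -0.08 to 0.14 for noah-2 and -0.33 to 0.57 for fbn-1 in the double mutant set against atfs-1(null). In the double mutant against wildtype they were -0.53 to 0.03 for noah-1 and -0.42 to 0.13 for fbn-1, and in the interaction -0.24 to 0.16 for mlt-8 and -0.35 to 0.1 for mlt-10.

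The number of the 10 genes called in nhr-180(cmh19) against wildtype, 2, was 3 with no filter and with DESeq2's Wald test, where fbn-1 was added, and 1 with only the compared genotypes or with the coding-length trend removed, where fbn-1 alone was called and both noah genes were lost. With the 2 libraries that stood apart left out it was 1 in the double mutant set against atfs-1(null) (beside 0), 7 in the double mutant against nhr-180(cmh19) (beside 4) and 1 in the interaction (beside 0). In the double mutant against wildtype the 3 became 5 with the trend removed, and 4, with mlt-7 added, with DESeq2's Wald test, only the compared genotypes or the 2 libraries left out. In the interaction the 0 became 1 with no filter and 3 with DESeq2's Wald test. With single libraries left out the counts ran 3 to 4 (atfs-1(null) against wildtype), 0 to 4 (nhr-180(cmh19) against wildtype), 0 to 1 (double mutant set against atfs-1(null)), 2 to 6 (double mutant against nhr-180(cmh19)), 2 to 5 (double mutant against wildtype) and 0 to 1 (interaction).

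Over all genes, 2291 were called in atfs-1(null) against wildtype, 1161 with only the compared genotypes and 1132 to 2408 with single libraries left out. In nhr-180(cmh19) against wildtype the 358 became 872 with DESeq2's Wald test, 555 without the 2 libraries that stood apart and 75 to 1042 with single libraries left out. In the double mutant set against atfs-1(null) the 71 became 150 with no filter, 226 with DESeq2's Wald test, 17 with only the compared genotypes, 113 with limma on log2(TPM + 1), 982 without the 2 libraries and 27 to 812. Against nhr-180(cmh19) the 2961 became 4643 without the 2 libraries and 437 to 4332, against wildtype the 2618 became 1121 to 4069, and in the interaction the 182 became 469 with DESeq2's Wald test, 482 without the 2 libraries and 65 to 456. Limma on log2(TPM + 1) put 64.3% of calls higher in atfs-1(null) against wildtype (52.7% by edgeR), 70.6% in the double mutant against nhr-180(cmh19) (55.6%) and 77.8% against wildtype (61.7%). DESeq2's Wald test put 55.3% higher in nhr-180(cmh19) against wildtype (70.4%) and 43.5% in the interaction (24.2%).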
